A study of Mus musculus with 9 samples.

Results

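The nuclear genes of oxidative phosphorylation were examined in 4T1 mammary tumors of mice on a low-fat or a high-fat diet. The members were chosen by symbol alone, with no measured value in the rule. A gene was a member if its symbol starts with Nduf, Uqcr, or Atp5, if it starts with Cox followed by a digit from 4 to 8 (Cox4nb was left out), or if it is Sdha, Sdhb, Sdhc, Sdhd, Cycs, or Cyc1. This gave 91 of the 22609 genes listed for each library. Of these, 36 are subunits of complex I, 5 are assembly factors of complex I, 4 are subunits of complex II, 9 of complex III, 20 of complex IV and its partners, and 16 of complex V, and 1 gene encodes cytochrome c.

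Oxidative phosphorylation takes place in the inner mitochondrial membrane. Complexes I and II pass electrons from NADH and succinate to ubiquinone, complex III passes them on to cytochrome c, and complex IV passes them to oxygen. Complexes I, III, and IV pump protons as they do so, and complex V, the ATP synthase, lets the protons flow back to make ATP. Most subunits are made from nuclear genes, and the few that are made from mitochondrial DNA were not analysed here. Nuclear respiratory factor 1 (NRF1), GABPA, the estrogen-related receptors, and the PGC-1 coactivators are known activators of the nuclear genes. Many tumor cells keep oxidative phosphorylation alongside a high rate of glycolysis.

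The 9 RNA-seq libraries came from orthotopic 4T1 tumors, 3 in each of 3 groups. 4T1 is a cell line from a mouse mammary carcinoma and serves as a model of triple-negative breast cancer (TNBC). BALB/c mice were fed a diet with 10 kcal% fat (LFD) or 60 kcal% fat (HFD) for 6 weeks, and 500000 4T1 cells were then placed in the mammary fat pad, with each diet kept until the end. The LFD and HFD groups were given the vehicle, hydroxy propyl cellulose at 0.3%. The HFD + EC359 group received EC359, an inhibitor of the leukemia inhibitory factor receptor (LIFR), at 5 mg/kg intraperitoneally on 5 days per week. All tumors grew from the same cell line in mice of 1 strain with an intact immune system, so each library holds RNA of tumor cells and of host cells. The age of the mice is not given in the sources used here. Nothing in the labels ties a replicate number to a litter, a day, or a batch, or says that replicates are tumors of separate mice. The p-values therefore measure the spread between these libraries, which may not be the spread between mice. In bulk RNA, fewer cells of a type and less RNA per cell cannot be told apart.

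The deposited values were expected counts of read pairs per gene, and the totals were 5085268 to 6509005 for LFD, 7314525 to 7922667 for HFD, and 8043470 to 9750959 for HFD + EC359. Levels are given as CPM, counts per 1000000 of the scaled library total. For a gene with no count, counting error alone leaves room for 3 counts, or 0.308 to 0.59 CPM of the unscaled totals. The libraries also differed in how GC-poor and GC-rich genes were represented. On the log2 scale, tested genes with at most 45.8% GC minus those with at least 55.4% GC, each relative to the gene's mean over all libraries, averaged -0.536 to -0.317 for LFD, 0.105 to 0.156 for HFD, and 0.254 to 0.302 for HFD + EC359, with LFD replicate 1 at the low end. The spread between replicate libraries was also widest for LFD. Its measure in edgeR, named the biological coefficient of variation, was 5.66% for LFD, 2.54% for HFD, and 2.76% for HFD + EC359. Whether this is a spread between animals cannot be told from the labels. The summed CPM of 10 markers of mammary carcinoma epithelium (keratins, junction genes, and Trp63) was 2075 to 2241 for LFD, 778 to 791 for HFD, and 1158 to 1185 for HFD + EC359. Within it, Krt14 averaged 762, 40.6, and 237 CPM in these groups, and Krt5 253, 30.6, and 143 CPM. Krt8 averaged 599, 408, and 442.5 CPM and Krt18 486, 293, and 304 CPM, so both changed less, in proportion, than the sum. The summed CPM of 9 leukocyte markers was 572 to 596, 685 to 703, and 834 to 865, and that of 13 skeletal muscle markers was 215 to 224, 201 to 213, and 187 to 197. Single muscle markers moved more than this sum and in opposite directions. Myh4 averaged 35.2, 50.5, and 18.2 CPM in the LFD, HFD, and HFD + EC359 groups, and Myh1 27.9, 12.7, and 36.7 CPM. No marker of these lists was at 0 in every library. Of the defining markers of a carcinoma, Krt8 was at 483 CPM and Krt18 at 361 CPM on average, while Epcam was at 4.61 CPM. Of the receptors that a triple-negative tumor lacks by definition, Pgr was at 0.389 CPM, Esr1 at 9.34 CPM, and Erbb2 at 86.4 CPM.

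Of the 91 members, 85 had enough counts to be tested. The 6 others were Cox7b2 and Cox8c, which had 0 counts in all 9 libraries, and Cox6a2, Cox6b2, Cox7a1, and Cox8b, isoforms known from muscle, heart, or testis. The subunits described by structural group (complex I core subunits, all of complex III, and the head and ring of complex V) were chosen after their values were seen. Levels between genes were compared as CPM per kilobase of exon, averaged over the 9 libraries. On this scale Cox4i1, the largest nuclear-encoded subunit of complex IV, was at 461, and Atp5b, the catalytic beta subunit of the ATP synthase, was at 455. These were the highest levels among the members. Atp5a1, the alpha subunit of the ATP synthase, followed at 208, and Ndufb9, an accessory subunit in the membrane arm of complex I, was close to it at 206.5. The median of the tested members was 92.2 CPM per kilobase in complex IV, 90.6 in complex V, 66.8 in complex III, 51.6 in complex II, and 32.3 in complex I. The assembly factors had a median of 7.04, and Cycs was at 8.85 CPM per kilobase.

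To see how the diet related to these genes, the HFD group was compared with the LFD group. In tumors of the HFD group, 33 of the 85 tested members were lower (38.8%, beside 25.8% of all 13366 tested genes), and 13 were higher (15.3%, beside 26.0% of all tested genes), by edgeR's quasi-likelihood test at a Benjamini-Hochberg adjusted p under 0.05. The other 39 did not pass. The median log2 fold change of the members was -0.10, and that of all tested genes was 0.007. The changes were small in size: 2 members, Cox7b and Ndufa12, both higher, passed a fold change over 2 with an adjusted p under 0.01 (5.69% of all tested genes passed this threshold in either direction). When libraries were scaled by their totals alone, 18 members were higher and 29 lower, and the share of all tested genes was not counted there. Markers of carcinoma epithelium moved in the same comparison, with 8 of 8 tested markers lower, as did 7 of 10 tested epidermis markers (1 was higher). Higher were 6 of 8 tested pericyte and smooth muscle markers (1 was lower), 5 of 8 leukocyte markers, and 5 of 6 erythroid markers. Hba-a1 and Hba-a2 had identical counts, as did Hbb-b1 and Hbb-b2, so these erythroid pairs are not separate measurements. Of 12 tested skeletal muscle markers, 3 were higher and 3 lower, and of 6 tested white adipocyte markers, 2 were higher and 0 lower. The part of all these markers in these results was not tested.

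The summed level of all 91 members was 6347, 6137, and 6156 CPM in the LFD libraries, 5262, 5257, and 5175 CPM in the HFD libraries, and 5033, 5072, and 4977 CPM in the HFD + EC359 libraries. The 3 groups did not overlap, and the LFD group was the highest. A few abundant genes carry much of this sum, and Atp5b alone made up 15.6% of it. By complex, the summed CPM of the HFD libraries was below that of the LFD libraries without overlap for complex I (1466 ± 4.85 and 1240 ± 8.48, mean ± SD, n = 3 in each group), complex III (740 ± 17.3 and 589.5 ± 1.72), complex IV (1068 ± 33.7 and 902 ± 18.5), and complex V (2549 ± 72.6 and 2112 ± 20). The sums of complex II overlapped, at 310 ± 5.87 CPM for LFD, 304 ± 8.03 for HFD, and 308 ± 6.57 for HFD + EC359. Between LFD and HFD, those of the assembly factors and of Cycs overlapped as well. Single genes weigh on these sums, with Uqcrc1 at 35.4% of complex III, Cox4i1 at 33.0% of complex IV, and Atp5b at 38.5% of complex V. Gene by gene, the median log2 fold change of HFD against LFD was -0.03 in complex II, -0.04 in complex IV, -0.13 in complex I, -0.25 in complex V, and -0.29 in complex III. No test was run on these sums.

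**Figure D1:**
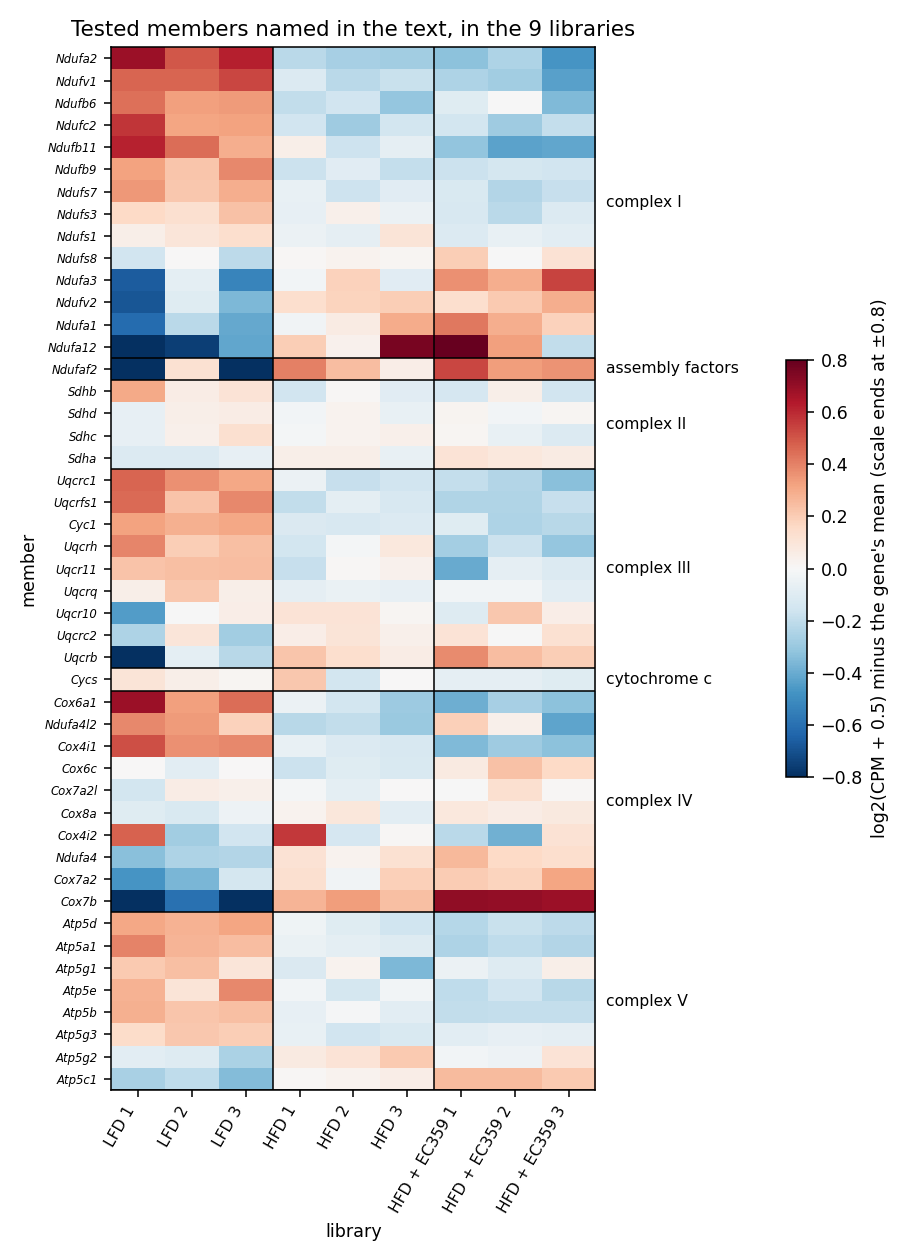
Heat map of the tested members named in the text (rows, grouped by complex and ordered by the HFD against LFD change) in the 9 libraries (columns). Color is log2 CPM, with a small constant added, minus the gene's mean over the 9 libraries. The upper rows of complexes I, III, IV, and V are red (high) in the LFD libraries, the lowest rows, such as Cox7b, are blue there, and the complex II rows stay pale.

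Complex I takes electrons from NADH through a flavin and a chain of iron-sulfur clusters. Of its 36 subunits, 13 were lower (36.1%, beside 25.8% of all tested genes) and 4 higher (11.1%, beside 26.0%) in the HFD group. But 10 were lower and 9 higher once each library's trend over GC content and gene length was taken off, a step described further on. The fall was largest in Ndufa2, an accessory subunit of the NADH-side arm (mm9 chromosome 18, 36902020 to 36904202). Its level was 70.8, 62.2, and 67.7 CPM in the LFD libraries, 37.7, 36.4, and 36.0 CPM in the HFD libraries, and 34.8, 36.9, and 31.4 CPM in the HFD + EC359 libraries. Every LFD library lay above all others, and the log2 fold change of HFD against LFD was -0.86 (standard error 0.079, adjusted p = 8.91e-11). Ndufv1, which binds NADH and the flavin (chromosome 19, 4007505 to 4012725), was at 123, 123, and 129 CPM in the LFD libraries and at 82.1, 76.5, and 78.2 CPM in the HFD libraries, or -0.66 on the log2 scale (standard error 0.056, adjusted p = 1.31e-11). Its groups did not overlap either.

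The membrane arm accessory subunits Ndufb6 and Ndufc2 each fell by 0.60 on the log2 scale, Ndufb11 by 0.51, and Ndufb9 by 0.46. Ndufb9, the most abundant complex I member, was at 166, 155, and 173 CPM in the LFD libraries and at 118, 124, and 116 CPM in the HFD libraries (adjusted p = 2.11e-09). Among core subunits that carry the flavin and the iron-sulfur clusters or lie next to them, Ndufv1, Ndufs7, and Ndufs3 fell, Ndufv2 rose, and Ndufs1 and Ndufs8 did not pass. Ndufv2, the direct partner of Ndufv1 in the NADH-binding part, thus moved opposite to it. Its level was 28.6, 43.2, and 36.0 CPM in the LFD libraries and 50.8, 52.4, and 53.2 CPM in the HFD libraries, which is 0.52 on the log2 scale (standard error 0.094, adjusted p = 2.43e-05). The groups did not overlap, and LFD replicate 1 was the lowest. The fall of Ndufs3 (log2 fold change -0.20) was not past the threshold without LFD replicate 3 (-0.17, adjusted p = 0.109), without HFD replicate 1 (-0.18, adjusted p = 0.0869), or without HFD replicate 3 (-0.19, adjusted p = 0.0706).

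Among the small accessory subunits, 3 rose. Ndufa12, which sits on the NADH-side arm late in assembly, was at 2.46, 2.83, and 3.70 CPM in the LFD libraries, 5.93, 5.24, and 8.995 CPM in the HFD libraries, and 10.6, 6.55, and 4.40 CPM in the HFD + EC359 libraries. The lowest HFD library was above the highest LFD library, and the log2 ratio was 1.15 (standard error 0.304, adjusted p = 0.00202). Ndufa12 has 1 near-identical copy elsewhere in the mm9 genome, and how reads that match both loci were counted was not checked. Ndufa1, an X-linked membrane subunit, rose by 0.54 on the log2 scale (adjusted p = 0.0129), and Ndufa3 by 0.42 (adjusted p = 0.0151). Both are low (Ndufa1 at 6.01 ± 0.897 and Ndufa3 at 11.4 ± 2.67 CPM in the LFD group), and Ndufa3 overlapped between the groups. The call of Ndufa1 was lost without LFD replicate 1 (0.45, adjusted p = 0.059) and without HFD replicate 3 (0.43, adjusted p = 0.074), and that of Ndufa3 without LFD replicate 1 (0.32, adjusted p = 0.0828), LFD replicate 3 (0.35, adjusted p = 0.0797), or HFD replicate 2 (0.34, adjusted p = 0.0883).

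Of the 5 assembly factors, Ndufaf2 passed the threshold and the others did not. Ndufaf2, a relative of Ndufa12 that holds its place during assembly, was at 0.614, 1.88, and 0.529 CPM in the LFD libraries and at 2.40, 2.096, and 1.77 CPM in the HFD libraries, so the groups overlapped. Its difference of 0.97 on the log2 scale (standard error 0.415, adjusted p = 0.0494) was no longer past the threshold without any single library other than LFD replicate 2, with values from 0.65 (adjusted p = 0.229, without LFD replicate 3) to 1.07 (adjusted p = 0.053, without HFD replicate 3).

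**Figure D2:**
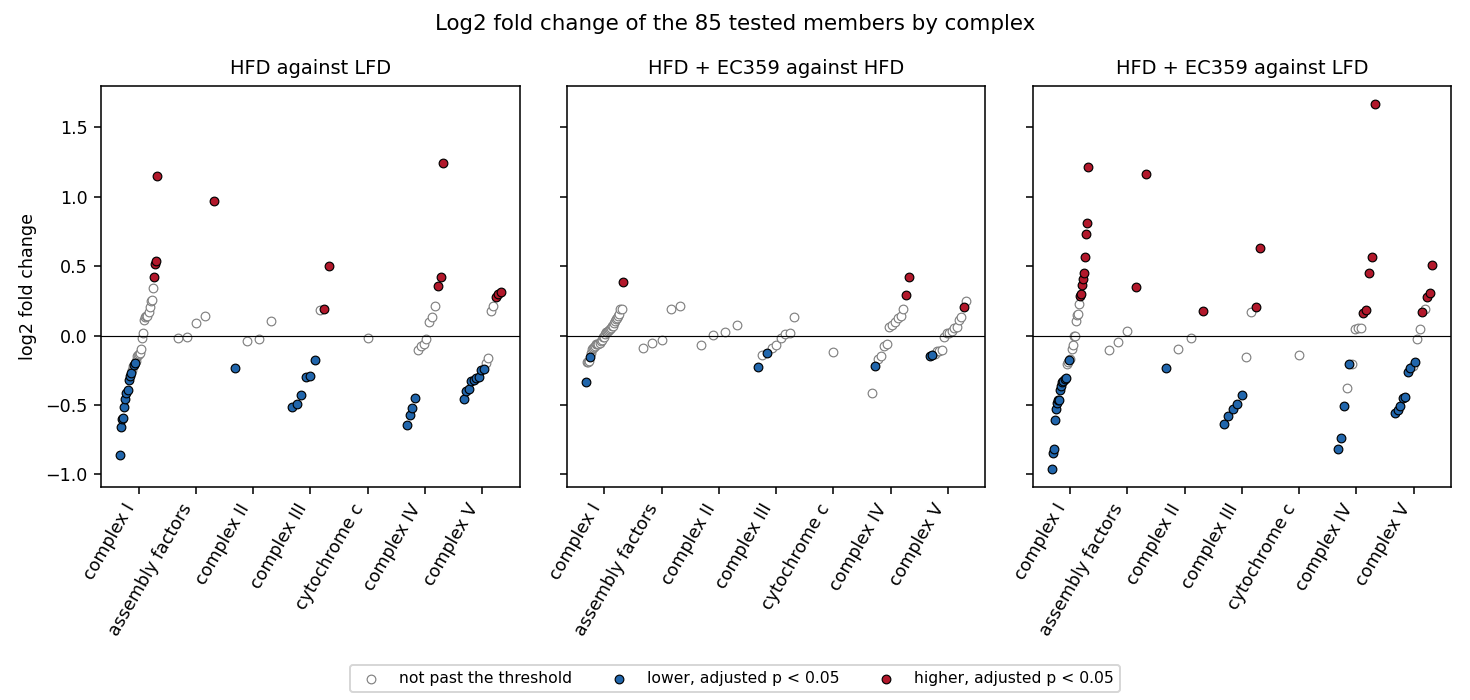
Log2 fold change of the 85 tested members (vertical axis) in the 3 comparisons, by complex (horizontal axis, members spread sideways in order). Filled points passed an adjusted p under 0.05, and HFD against LFD ran from -0.86 (Ndufa2) to 1.24 (Cox7b), while HFD + EC359 against HFD ran from -0.41 to 0.42.

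Complex II, succinate dehydrogenase, is shared with the tricarboxylic acid cycle and has no subunit from mitochondrial DNA. Of its 4 genes, 1 passed the threshold. Sdha, the flavoprotein, was at 105, 105, and 108 CPM in the LFD libraries, 117, 117, and 109 CPM in the HFD libraries, and 122, 120, and 118.5 CPM in the HFD + EC359 libraries, and its log2 fold change of 0.11 (adjusted p = 0.0745) passed without HFD replicate 3 (0.14, adjusted p = 0.0377) and with library totals alone (0.15, adjusted p = 0.0132), but under no other setting tried. Sdhb, the iron-sulfur subunit, was lower with HFD (72.6 ± 6.69 CPM against 61.5 ± 3.47 CPM, log2 fold change -0.23, adjusted p = 0.00741), but not without LFD replicate 1 (-0.16, adjusted p = 0.0555). The membrane anchors Sdhc and Sdhd had log2 fold changes of -0.02 (standard error 0.062) and -0.04 (standard error 0.07), and the sign of both turned with library totals alone.

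Complex III hands electrons from ubiquinol to cytochrome c. Of its 9 subunits, 6 were lower (66.7%, beside 25.8% of all tested genes) and 2 higher (22.2%, beside 26.0%) in the HFD group. Uqcrc1, a core subunit that holds the complex together (chromosome 9, 108838661 to 108851686), was at 302, 282, and 271 CPM in the LFD libraries, 211, 192, and 196 CPM in the HFD libraries, and 191, 185, and 172.5 CPM in the HFD + EC359 libraries. All LFD libraries were above all others, with HFD against LFD at -0.51 on the log2 scale (standard error 0.047, adjusted p = 1.03e-10). The electron-carrying subunits fell with it: Uqcrfs1, the Rieske iron-sulfur protein, by 0.49 on the log2 scale (adjusted p = 1.02e-07), and Cyc1, cytochrome c1, by 0.42 (adjusted p = 1.7e-07). Uqcrh, the acidic hinge protein between cytochrome c1 and cytochrome c, fell by 0.30 (adjusted p = 0.00027). Uqcr11 (-0.29) and Uqcrq (-0.18), small subunits, were also lower, but Uqcr11 not without HFD replicate 1 (-0.22, adjusted p = 0.0735), and Uqcrq not without LFD replicate 2 (-0.12, adjusted p = 0.245) or 5 other single libraries.

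The higher members of complex III depended on single libraries. Uqcrb, a small subunit near the quinone sites, was at 6.75, 12.7, and 11.5 CPM in the LFD libraries and at 15.8, 14.8, and 14.0 CPM in the HFD libraries. Its log2 fold change of 0.50 (adjusted p = 0.00729) became 0.30 (adjusted p = 0.0968) without LFD replicate 1. Uqcrc2, the second core subunit, was at 48.9, 62.3, and 47.8 CPM and at 60.3, 62.5, and 59.8 CPM, which overlapped, and its call (0.19, adjusted p = 0.0455) was lost without any single library but LFD replicate 2, down to 0.12 without LFD replicate 3 (adjusted p = 0.281). Uqcr10 did not pass. Uqcrb, Uqcr11, and Uqcrh have 3, 2, and 1 near-identical copies elsewhere in the genome. Cycs, the mobile carrier between complexes III and IV, was at 29.1, 28.0, and 27.3 CPM in the LFD libraries and 31.4, 24.4, and 27.1 CPM in the HFD libraries, with no difference past the threshold (log2 fold change -0.02, standard error 0.101, adjusted p = 0.878), a value whose sign turned without LFD replicate 1, without HFD replicate 2, and with library totals alone.

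In complex IV, 4 of 14 tested members were lower (28.6%) and 3 higher (21.4%) in the HFD group, near the shares of all tested genes (25.8% and 26.0%). Cox4i1 (chromosome 8, 123192190 to 123198109) was at 436, 393, and 399 CPM in the LFD libraries, 293, 283, and 279 CPM in the HFD libraries, and 239, 251, and 244 CPM in the HFD + EC359 libraries. The 3 groups did not overlap, and the log2 fold change of HFD against LFD was -0.52 (standard error 0.041, adjusted p = 2.46e-12). Cox6a1, a small subunit with a sister isoform in muscle, fell from 118 ± 15.2 CPM to 74.9 ± 6.36 CPM (-0.65 on the log2 scale, standard error 0.07, adjusted p = 2.39e-09). Cox7a2l, a relative of Cox7a2 that joins complexes III and IV, was at 101 ± 7.91 CPM and 99.8 ± 2.80 CPM (log2 fold change -0.02, adjusted p = 0.764).

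Cox7b, a small X-linked subunit needed for complex IV assembly (chromosome X, 103211039 to 103217789), moved the other way and had the largest rise of all members. Its level was 6.96, 11.9, and 8.81 CPM in the LFD libraries, 22.2, 23.2, and 21.7 CPM in the HFD libraries, and 30.2, 30.0, and 29.7 CPM in the HFD + EC359 libraries. The groups did not overlap, and the replicates of the HFD and HFD + EC359 groups lay close together. The log2 fold change of HFD against LFD was 1.24 (standard error 0.135, adjusted p = 3.07e-09), and it was 1.09 to 1.49 when each library was left out in turn. Cox7a2 and Ndufa4 also rose, by 0.42 and 0.36 on the log2 scale (adjusted p = 0.00226 and 0.000137). Ndufa4, once counted as a complex I subunit and now placed in complex IV, was at 40.9, 43.5, and 43.9 CPM in the LFD libraries and 56.0, 52.7, and 56.2 CPM in the HFD libraries, without overlap.

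**Figure D3:**
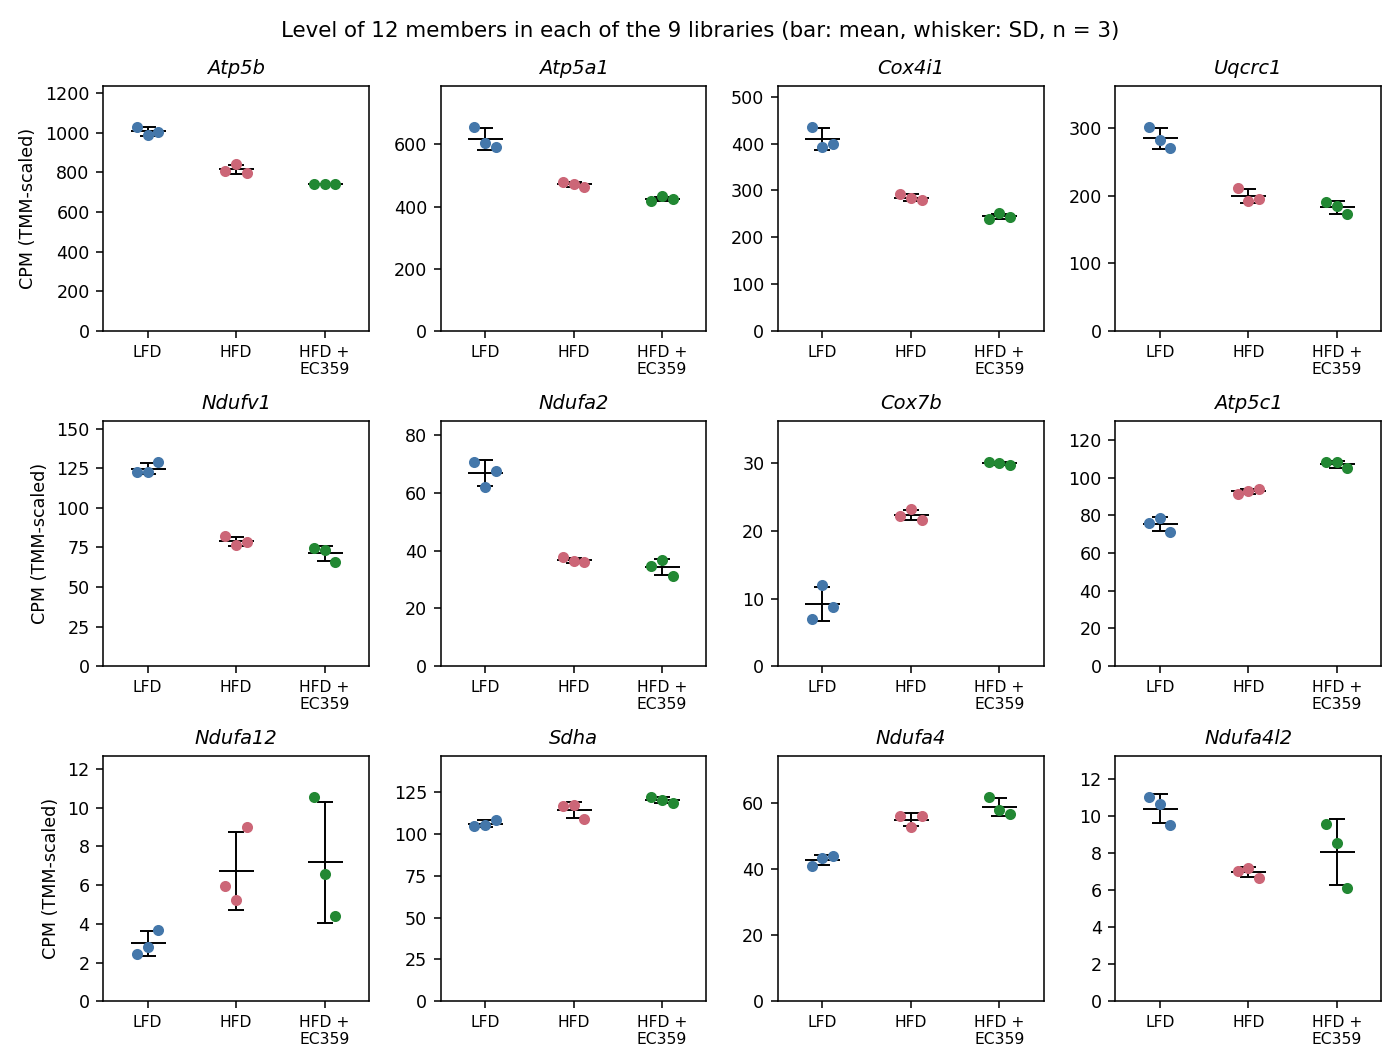
Level of 12 members in each library (points, CPM on a linear axis from 0), with the mean and SD of each group (n = 3). Atp5b, Atp5a1, Cox4i1, Uqcrc1, Ndufv1, and Ndufa2 are highest in the LFD group, Cox7b and Atp5c1 rise from LFD to HFD to HFD + EC359, and Sdha lies between 105 and 122 CPM throughout.

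In complex V, 9 of 16 members were lower (56.25%, beside 25.8% of all tested genes) and 3 higher (18.75%, beside 26.0%) in the HFD group. The catalytic head holds alpha and beta subunits around a central stalk of gamma, delta, and epsilon. Atp5b (beta, chromosome 10, 127520363 to 127527444) was at 1030, 989, and 1001 CPM in the LFD libraries, 809, 841, and 798.5 CPM in the HFD libraries, and 739.5, 741, and 742.5 CPM in the HFD + EC359 libraries. Atp5a1 (alpha) was at 656.5, 603, and 592 CPM, then at 480, 473, and 463 CPM, and then at 419.5, 433, and 423 CPM. In both genes the 3 groups did not overlap, and the log2 fold changes of HFD against LFD were -0.30 (standard error 0.031, adjusted p = 1.19e-09) and -0.39 (standard error 0.037, adjusted p = 2.17e-10). Atp5d (delta) and Atp5e (epsilon) fell by 0.40 and 0.32 on the log2 scale (adjusted p = 3.89e-08 and 0.0003). Atp5c1, the gamma subunit that turns inside the head (chromosome 2, 9977659 to 10002137), rose instead. It was at 75.9, 78.8, and 71.2 CPM in the LFD libraries, 91.6, 92.7, and 94.2 CPM in the HFD libraries, and 108, 108, and 105 CPM in the HFD + EC359 libraries, again without overlap (log2 fold change of HFD against LFD 0.30, standard error 0.055, adjusted p = 3.18e-05).

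The proton-carrying ring of complex V is built from a single mature protein that 3 genes encode. Atp5g3, the most abundant of them, fell (135.5 ± 3.43 CPM to 110 ± 3.75 CPM, log2 fold change -0.30, adjusted p = 3.83e-06), and so did Atp5g1 (29.1 ± 1.57 CPM to 23.1 ± 3.18 CPM, log2 fold change -0.33, adjusted p = 0.00941), though not without HFD replicate 3 (-0.23, adjusted p = 0.0759). Atp5g2 rose (71.1 ± 4.51 CPM to 86.2 ± 4.42 CPM, log2 fold change 0.28, adjusted p = 0.000434). Per kilobase, Atp5g2 stood at 55.1% ± 4.13 of Atp5g3 for LFD, 82.3% ± 5.84 for HFD, and 74.1% ± 4.35 for HFD + EC359, with no LFD library above 59.0%. Atp5g1 has 1 and Atp5g2 has 3 near-identical copies elsewhere in the genome.

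Since the libraries differed by GC content, and the members are short (median 739 bases of exon, beside 2843 for all tested genes) and slightly GC-rich (median 52.9%, beside 50.8%), the comparison was repeated with the smooth trend of each library over GC content and length taken off. In HFD against LFD, 26 members were then lower (20.8% of all tested genes were) and 17 higher (21.6%), with a median of -0.06. By complex, lower and higher members then numbered 10 and 9 of 36 in complex I, 0 and 0 of 4 in complex II, 4 and 1 of 9 in complex III, 4 and 3 of 14 in complex IV, and 7 and 4 of 16 in complex V. The lower and higher counts were thus closer to each other than before. Across the 85 members, the log2 fold change went with GC content at a Pearson r of -0.35 before and 0.09 after this step, and r was -0.33 over all tested genes before it. Members share libraries and are not replicates, so these values are descriptions.

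Of the genes described above, Ndufa2 (-0.81), Ndufb6 (-0.72), Ndufc2 (-0.65), Uqcrfs1 (-0.53), Cox6a1 (-0.45), Ndufv1 (-0.43), Ndufb11 (-0.39), Atp5a1 (-0.37), Ndufb9 (-0.35), Uqcrh (-0.35), Atp5g3 (-0.34), Cox4i1 (-0.33), Uqcrc1 (-0.26), Atp5e (-0.26), Atp5b (-0.24), and Cyc1 (-0.14) were still lower with the trend taken off, and Cox7b (0.99), Ndufa12 (1.14), Ndufa1 (0.52), Ndufa3 (0.46), Atp5g2 (0.43), Cox7a2 (0.37), Atp5c1 (0.36), and Ndufv2 (0.22) were still higher. Others were no longer past the threshold: Ndufs7 (-0.11), Ndufs3 (-0.07), Sdhb (-0.06), Uqcr11 (-0.12), Uqcrq (-0.01), Atp5d (-0.09), Atp5g1 (-0.12), and Ndufa4l2 (-0.29) among the lower members, and Ndufa4 (0.11), Uqcrb (0.11), Uqcrc2 (-0.001), and Ndufaf2 (0.88) among the higher ones. Some members passed only after this step. Cycs, with 40.3% GC, passed as lower (-0.37, adjusted p = 0.00323), and Cox8a, with 58.9% GC, passed as higher (0.30, adjusted p = 3.28e-05). The core complex I subunits Ndufs1 (-0.24) and Ndufs8 (0.39) passed in opposite directions.

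**Figure D4:**
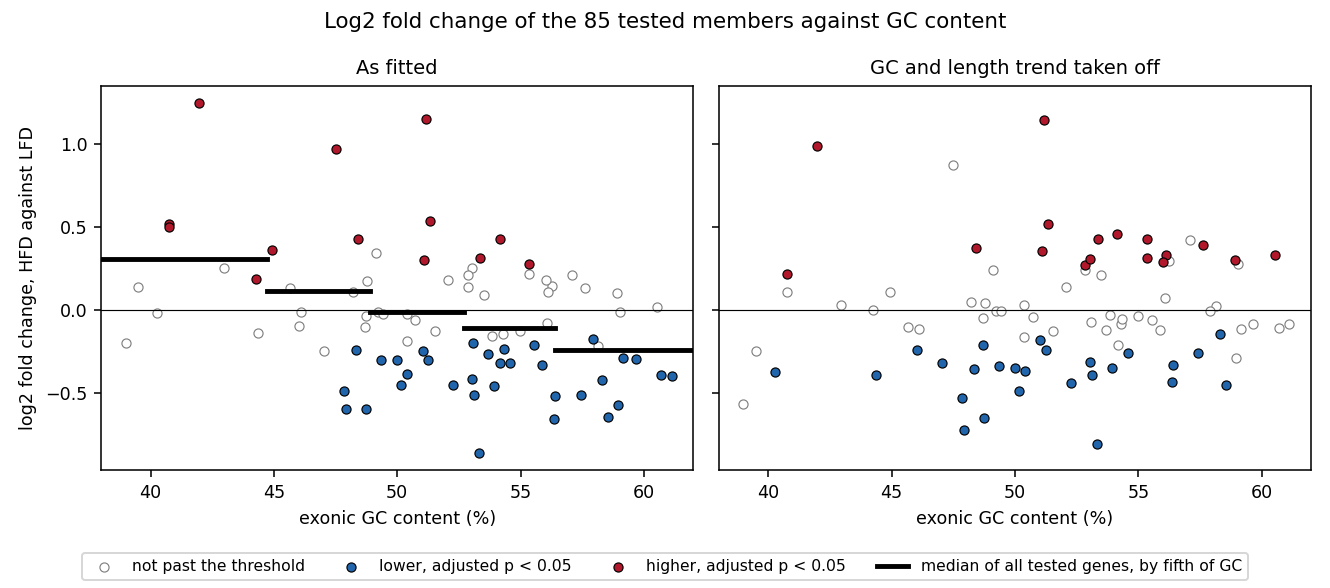
Log2 fold change of HFD against LFD (vertical axis) against the exonic GC content in percent (horizontal axis) of the 85 tested members, as fitted (left) and after the trend over GC content and length was taken off (right). Bars at the left are medians of all tested genes in 5 classes of GC content of equal size, from 0.31 in the GC-poorest to -0.24 in the GC-richest class.

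Level and direction went together among the members. The members called lower in HFD against LFD had a median of 80.2 CPM per kilobase and those called higher a median of 31.0, with ranges of 8.83 to 461 and 2.70 to 122. The 39 members that did not pass had a median of 28.6, close to that of the higher ones, and a range of 2.31 to 148. The log2 fold change went with log2 CPM per kilobase at a Pearson r of -0.46 across the 85 members (-0.08 over all tested genes), and at -0.39 (-0.02 over all tested genes) with the GC and length trend taken off. By rank, the Spearman values were -0.52 (-0.20 over all tested genes) before that step and -0.42 (-0.11) after it. A weaker relation of the same sign was thus present over all tested genes.

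**Figure D5:**
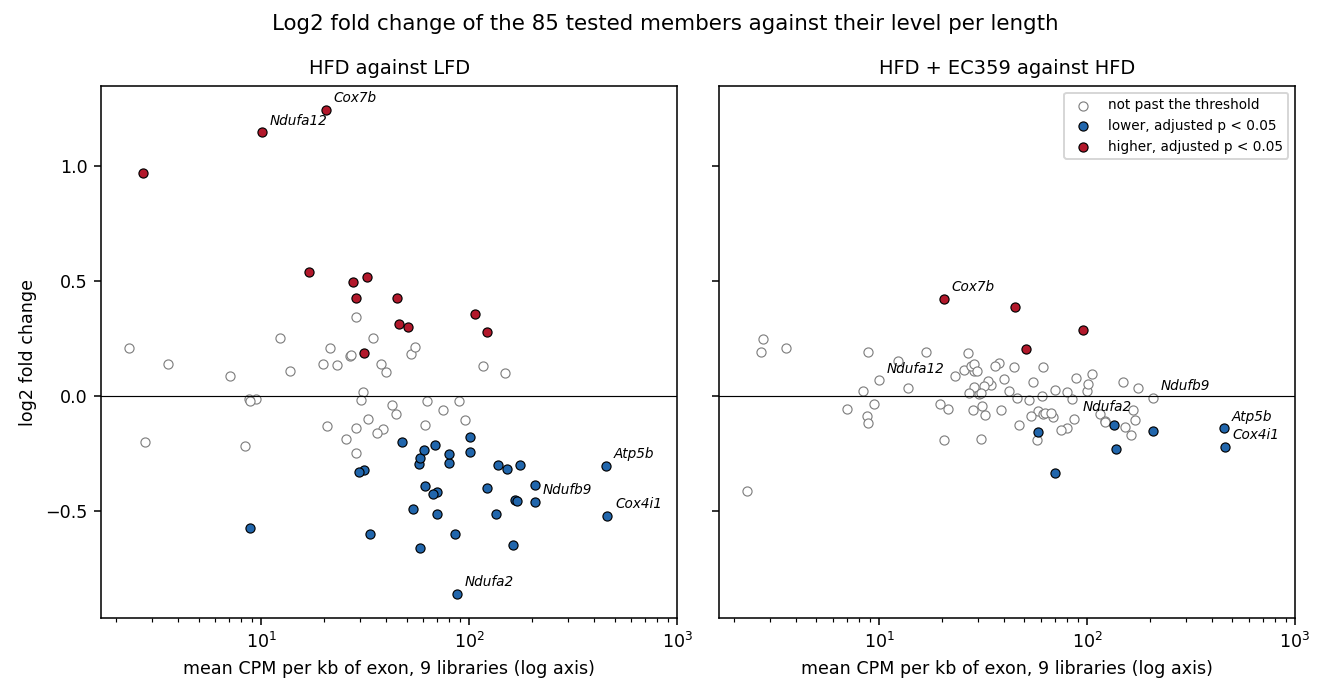
Log2 fold change (vertical axis) against the mean CPM per kilobase of exon over the 9 libraries (horizontal log axis) for the 85 tested members in HFD against LFD (left) and HFD + EC359 against HFD (right). Cox4i1 and Atp5b, at 461 and 455, lie below 0 in both panels, and Cox7b, at 20.5, is the highest point in both.

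EC359 was given to mice on the HFD, and the HFD + EC359 group was compared with the HFD group, which this comparison shares with the one before. Few members changed: 7 of 85 were lower (8.24%, beside 13.8% of all tested genes), 4 were higher (4.71%, beside 12.7%), and 74 did not pass. No member passed a fold change over 2 with an adjusted p under 0.01, which 3.46% of all tested genes did. The median log2 fold change was 0.002 for the members and 0.006 for all tested genes. With the GC and length trend taken off, 11 were lower (12.9%, beside 12.7% of all tested genes) and 2 higher (2.35%, beside 12.8%). With the trend over length alone taken off, 14 were lower and 4 higher, and the share of all tested genes was not counted there. In this comparison 7 of 8 tested carcinoma epithelium markers, 8 of 10 epidermis markers, and 7 of 8 leukocyte markers were higher. Lower were 5 of 8 pericyte and smooth muscle markers and 5 of 6 erythroid markers, with the same identical pairs among the latter. Of 12 skeletal muscle markers, 3 were higher and 3 lower, and of 6 white adipocyte markers, 1 was higher and 0 lower. The part of all these markers in these values was not tested.

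The lower members were Ndufb11, Uqcrh, Cox4i1, Ndufv1, Atp5a1, Atp5b, and Uqcrc1. Cox4i1 was at -0.22 on the log2 scale (standard error 0.041, adjusted p = 9.25e-05), Atp5a1 of -0.15 (standard error 0.037, adjusted p = 0.00224), and Atp5b of -0.14 (standard error 0.031, adjusted p = 0.00087). In all of these, every HFD + EC359 library was below every HFD library. Ndufb11, an X-linked accessory subunit of the membrane arm, was at 60.0, 51.6, and 55.2 CPM in the HFD libraries and at 46.5, 43.0, and 43.3 CPM in the HFD + EC359 libraries, the largest fall (-0.33 on the log2 scale, standard error 0.076, adjusted p = 0.00112). It has 1 near-identical copy elsewhere. Uqcrh fell from 73.0 ± 5.78 CPM to 62.3 ± 3.11 CPM (-0.23, adjusted p = 0.0075), but not without HFD replicate 3 (-0.18, adjusted p = 0.0765). Ndufv1 (-0.15, adjusted p = 0.041) and Uqcrc1 (-0.13, adjusted p = 0.0436) were close to the threshold. Ndufv1 missed it without any 1 of 5 of the 6 libraries of the comparison (-0.18 to -0.10, with adjusted p up to 0.271 without HFD + EC359 replicate 3), and Uqcrc1 without HFD replicate 1 (-0.09, adjusted p = 0.261) or any 1 of 3 others. Both calls were also lost with the GC and length trend taken off (Ndufv1 at -0.13, adjusted p = 0.0873, and Uqcrc1 at -0.08, adjusted p = 0.162), while the other 5 lower members still passed.

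Cox7b was again the largest rise, at 0.42 on the log2 scale (standard error 0.098, adjusted p = 0.00138). Its 3 HFD + EC359 libraries, at 29.7 to 30.2 CPM, were all above the HFD libraries, at 21.7 to 23.2 CPM. Atp5c1 rose by 0.21 (standard error 0.049, adjusted p = 0.00163). Both were still higher with the GC and length trend taken off (0.28 and 0.20). Cox6c, a small complex IV subunit, rose from 43.8 ± 1.17 CPM to 53.5 ± 3.10 CPM (0.29, adjusted p = 0.00214), above its 47.1 ± 1.61 CPM in the LFD group. It has 2 near-identical copies elsewhere, and it was not past the threshold with the trend taken off (0.17, adjusted p = 0.0834). Ndufa3 rose from 15.6 ± 1.63 CPM to 20.3 ± 1.89 CPM (0.39, adjusted p = 0.0143), but not without HFD + EC359 replicate 3 (0.30, adjusted p = 0.117), HFD replicate 1 (0.35, adjusted p = 0.0712), or HFD replicate 3 (0.33, adjusted p = 0.0813), and not with the trend taken off (0.30, adjusted p = 0.0515).

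The genes of complex II, the core subunits of complex I named above other than Ndufv1, and the ring genes of complex V did not pass in this comparison. Sdha, for example, differed by 0.07 on the log2 scale (standard error 0.046, adjusted p = 0.27), and Atp5g2 one of -0.11 (standard error 0.058, adjusted p = 0.168). With the GC and length trend taken off, Atp5g2 was lower (-0.17, adjusted p = 0.0192). Ndufa2, the member with the largest fall in HFD against LFD, stood at -0.10 on the log2 scale (standard error 0.082, adjusted p = 0.415).

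The last comparison sets the HFD + EC359 group against the LFD group. It differs in diet and drug together, and it shares libraries with both others. In it, 33 members were lower (38.8%, beside 29.1% of all tested genes) and 23 higher (27.1%, beside 29.2%), and 29 did not pass. The median was -0.10. With the trend taken off, 35 were lower (41.2%, beside 23.8% of all tested genes) and 16 higher (18.8%, beside 25.3%). Cox7b and Ndufa12 passed a fold change over 2 with an adjusted p under 0.01, which 5.09% of all tested genes did. DESeq2 called 15 higher, and its share of all tested genes was not counted.

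In Cox7b the log2 fold change against the LFD group was 1.67 (standard error 0.126, adjusted p = 5.37e-13), and in Atp5c1 it was 0.51 (standard error 0.053, adjusted p = 9.34e-10). At the other end stood Ndufa2 (-0.96, adjusted p = 2.96e-12), Ndufb11 (-0.85, adjusted p = 2.25e-11), Cox6a1 (-0.82, adjusted p = 6.94e-12), Ndufv1 (-0.81, adjusted p = 4.01e-14), and Cox4i1 (-0.74, adjusted p = 2.63e-16). Across the 3 comparisons, 3 members were called higher in each (Cox7b, Atp5c1, and Ndufa3), and 7 were called lower in each. No member was called in opposite directions in HFD against LFD and in HFD + EC359 against HFD. The comparisons share libraries, so these counts are not independent. The same patterns were not counted over all tested genes, so whether the members differ from other genes in this cannot be told.

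Several complex IV subunits exist as a widely expressed form and a form of muscle, heart, lung, or low oxygen. The widely expressed forms held nearly all of the signal. Cox4i2, the alternate form of Cox4i1 known from lung and low oxygen, was at 1.26 to 2.46 CPM in the LFD libraries, 1.44 to 2.65 CPM in the HFD libraries, and 1.13 to 1.80 CPM in the HFD + EC359 libraries, and per kilobase it reached at most 0.845% of Cox4i1. HFD against LFD was 0.21 on the log2 scale (standard error 0.381, adjusted p = 0.669), and -0.11 without HFD replicate 1. Cox6a2 was at 0 to 0.757 CPM, Cox7a1 at 0.252 to 0.786 CPM, and Cox8b at 0 to 0.176 CPM, at or near the limit that the depth allows. Cox7a1 per kilobase was 6.63% ± 2.34 of Cox7a2 for LFD, 4.88% ± 2.78 for HFD, and 3.96% ± 1.10 for HFD + EC359, which overlapped. Cox8a was at 75.9 ± 2.23, 81.3 ± 4.86, and 84.9 ± 0.733 CPM in the 3 groups, and its log2 fold change of HFD against LFD was 0.10 (standard error 0.059, adjusted p = 0.158).

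The pair Ndufa4 and Ndufa4l2 did change. Ndufa4l2, a relative of Ndufa4 known as a target of the hypoxia factor HIF-1, was at 11.1, 10.7, and 9.52 CPM in the LFD libraries, 7.06, 7.21, and 6.68 CPM in the HFD libraries, and 9.58, 8.58, and 6.10 CPM in the HFD + EC359 libraries. All LFD libraries were above the HFD libraries (-0.57 on the log2 scale, standard error 0.175, adjusted p = 0.0068), and the HFD + EC359 libraries spread over both ranges. Per kilobase, Ndufa4l2 was 12.5% ± 1.36 of Ndufa4 for LFD, 6.51% ± 0.46 for HFD, and 7.01% ± 1.31 for HFD + EC359. With the GC and length trend taken off, neither Ndufa4l2 (-0.29, adjusted p = 0.182) nor Ndufa4 (0.11, adjusted p = 0.238) was past the threshold, and their GC contents are 58.9% and 44.9%.

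Promoter windows of 250 bases before to 50 bases after the gene start (RefSeq, GRCm38.p6) were found for 75 of the 91 members. The NRF1 motif, searched on both strands as GCGC, any base, and TGCGC, was in at least 1 window of 18 of these members (24%), and it was in 4.6% of all 32851 windows. The window counts of members were 19 of 81 (23.5%). The YY1 motif AAGATGGC was in 11 members (14.7%, and 2.75% of all windows), the GABPA motif CCGGAAGT in 5 (6.67%, and 3.89%), and the ERR motif TCAAGGTCA in 2 (2.67%, and 0.423%). Counted by window, the member shares were 14.8% for YY1, 6.17% for GABPA, and 2.47% for ERR. The 32851 windows were not limited to tested genes, so they are not a matched background. By call in HFD against LFD, the NRF1 motif was in 3 of 11 higher members with a window, 5 of 25 lower members, and 10 of 35 that did not pass. The windows of Cox7b and Atp5c1, which rose, and of Cox6a1 and Uqcrc1, which fell, are shown as examples of both directions, from complexes IV, V, and III. They are written 5′ to 3′ along the gene, in lower case, and capitals mark the NRF1 motif on either strand. Cox7b holds none, Atp5c1 holds 1 and has another listed start whose window holds none, and Cox6a1 and Uqcrc1 each hold 2. A match is a description of the letters and not of binding.
Cox7b (chrX:106015450-106015749, plus strand): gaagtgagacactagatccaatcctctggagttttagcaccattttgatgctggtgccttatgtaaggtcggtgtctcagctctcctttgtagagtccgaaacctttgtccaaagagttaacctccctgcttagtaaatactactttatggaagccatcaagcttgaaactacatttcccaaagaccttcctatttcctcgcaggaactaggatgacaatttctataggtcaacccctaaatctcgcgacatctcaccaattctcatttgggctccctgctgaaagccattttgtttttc
Atp5c1 (chr2:10080383-10080682, minus strand): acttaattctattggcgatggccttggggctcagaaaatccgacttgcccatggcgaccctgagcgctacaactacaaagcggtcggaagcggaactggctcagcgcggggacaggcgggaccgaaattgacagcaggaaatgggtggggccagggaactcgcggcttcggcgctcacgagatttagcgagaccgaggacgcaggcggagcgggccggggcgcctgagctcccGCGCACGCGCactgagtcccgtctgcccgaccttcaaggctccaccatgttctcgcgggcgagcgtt
Cox6a1 (chr5:115348909-115349208, minus strand): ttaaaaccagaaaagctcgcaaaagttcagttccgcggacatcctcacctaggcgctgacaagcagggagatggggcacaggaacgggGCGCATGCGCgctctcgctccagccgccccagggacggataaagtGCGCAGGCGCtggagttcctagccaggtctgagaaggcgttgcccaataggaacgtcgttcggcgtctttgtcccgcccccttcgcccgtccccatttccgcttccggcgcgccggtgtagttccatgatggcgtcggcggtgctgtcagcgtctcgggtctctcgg
Uqcrc1 (chr9:108936398-108936697, plus strand): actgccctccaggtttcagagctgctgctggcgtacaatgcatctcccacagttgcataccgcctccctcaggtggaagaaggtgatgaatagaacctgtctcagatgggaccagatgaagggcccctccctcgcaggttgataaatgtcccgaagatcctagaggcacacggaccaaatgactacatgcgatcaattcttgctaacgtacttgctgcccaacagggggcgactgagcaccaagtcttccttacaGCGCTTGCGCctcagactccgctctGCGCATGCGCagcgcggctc

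Lists of genes around the pathway were compared in the same fit, in which 26.0% of all tested genes were higher and 25.8% lower in HFD against LFD. With the GC and length trend taken off, these shares were 21.6% and 20.8%. Of 15 tested regulators of these genes, 3 were higher and 6 lower, and with the GC and length trend taken off 1 was higher and 5 lower. The 3 most abundant were Hif1a, the oxygen-sensitive factor (234 and 268 CPM in the LFD and HFD groups), Myc (215 and 199 CPM), and Pprc1, a relative of the PGC-1 coactivators (198 and 163 CPM). Hif1a was higher (log2 fold change 0.19, adjusted p = 0.000235) but lower with the trend taken off (-0.13, adjusted p = 0.0079). Myc was lower, close to the threshold (-0.11, adjusted p = 0.0488), but not without LFD replicate 1 (-0.08, adjusted p = 0.129) or any 1 of 5 others, and not with the trend taken off (0.02, adjusted p = 0.747). Pprc1 was lower (-0.28, adjusted p = 4.75e-05), but not with the trend taken off (-0.11, adjusted p = 0.0615). Among the factors whose motifs were searched, Yy1 (-0.46, adjusted p = 1.73e-08) and Esrra (-0.67, adjusted p = 1.81e-09) were lower, also with the trend taken off (-0.47 and -0.37). Gabpa was higher (0.29, adjusted p = 0.0076), but not with the trend taken off (-0.045, adjusted p = 0.72), and Nrf1 did not pass (0.10, adjusted p = 0.267). Esrrb, Esrrg, and Ppargc1a had 11, 1, and 3 counts over all 9 libraries and were not tested.

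Of 26 tested assembly factors outside the rule, 2 were higher and 6 lower, and with the trend taken off 0 were higher and 10 lower. Lrpprc, which steadies mitochondrial mRNAs, was the most abundant and did not pass (-0.07, adjusted p = 0.278), but was lower with the trend taken off (-0.16, adjusted p = 0.0066). Of 18 tested enzymes of the tricarboxylic acid cycle outside complex II, 1 was higher and 7 lower, and with the trend taken off 2 were higher and 3 lower. Cs, citrate synthase, fell from 264 to 197 CPM (-0.42, adjusted p = 5.2e-10, and -0.43 with the trend taken off), while Dlst (-0.09, adjusted p = 0.102) did not pass.

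Of 19 tested genes of mitochondrial import, 1 was higher and 7 lower, and with the trend taken off 2 were higher and 8 lower. Tomm40, the outer membrane channel, fell from 140 to 104 CPM (-0.43, and -0.12 with the trend taken off, adjusted p = 0.0391). Its receptor partner Tomm22 fell from 131 to 103 CPM (-0.34, and -0.33 with the trend taken off). Of 9 tested partners and carriers of the ATP synthase, 2 were higher and 4 lower, and with the trend taken off 1 was higher and 4 lower. Slc25a3, the phosphate carrier, fell from 438 to 361 CPM (-0.28, and -0.35 with the trend taken off), and Ucp2, an uncoupling protein relative, rose from 193 to 224 CPM (0.21, and 0.35 with the trend taken off).

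In HFD + EC359 against HFD, in which 12.7% of all tested genes were higher and 13.8% lower, these lists had 0 to 1 higher and 0 to 3 lower members each. With the GC and length trend taken off, 12.8% of all tested genes were higher and 12.7% lower. With the trend taken off, 6 of the 9 partners and carriers of the ATP synthase were lower (2 before), 4 of the 19 import genes were lower (3 before), 2 of the 26 assembly factors were lower (1 before), and 2 of the 18 enzymes of the tricarboxylic acid cycle were higher (1 before).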

How the data were processed

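RNA-seq was measured in 9 libraries of 4T1 tumors, 3 in each of 3 groups. Per the file headers and the submitters' processing notes, the authors aligned read pairs with HISAT2 2.1.0 and deposited expected counts per gene from featureCounts 1.5.0-p1 over mm9 genes (minimum mapping quality 2, strand setting 2), with shared pairs counted as fractions. The study's methods instead name TopHat2 and HTSeq, and the headers were followed. The counts were rounded to whole numbers, genes with low counts were removed by filterByExpr, and the 13366 genes left were scaled by TMM factors and compared by edgeR 4.0.16 (R 4.3.3) with the quasi-likelihood test over all 9 libraries, with Benjamini-Hochberg adjustment over all tested genes and a threshold of 0.05. Adjusted p-values in the text come from this fit unless a setting is named. CPM are counts per 1000000 of the library total times its TMM factor, and separation of groups is given without a test, since a two-sided exact permutation test of 3 against 3 cannot go below 0.1.

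The trend over exonic GC content and length was fitted per library with mgcv 1.9.3 and taken off as an offset. Other alternatives were DESeq2 1.42.0, other scaling factors, other filters, thinning to the smallest total, the 6 libraries of a comparison alone, a replicate block, leaving out each library, and the threshold of the study's methods (more than 2-fold, at an adjusted p below 0.01). Same-numbered libraries did not deviate together (correlations of -0.03 to 0.017 across genes), so the numbers were not treated as pairs. The main fit, the fit with the GC and length trend taken off, and DESeq2 were tested on simulated data, for HFD against LFD alone. The other alternatives were not.

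The members and lists were chosen with earlier results of these data known. Members were named by a rule: the 3 most abundant of complexes I, III, IV, and V, Sdha to Sdhd, Cycs, Cyc1, the 5 largest rises and falls in each of the first 2 comparisons, and the isoform pairs. The structural groups were added later. Some genes that the rule selects are not reported here. Near-identical copies are matches in the mm9 genome of at least 95% identity over at least 50% of exon bases. At least 1 was found for 23 members, not all of which are marked in the text. Depth was 5085268 to 9750959 counts per library.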

Additional observations from a re-analysis of the deposited data

How the results depend on the processing

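The counts of members called kept within 1.5 times of the reported counts under most alternatives. Shares of all tested genes were counted only for the main fit, the GC and length trend fit, and the threshold of the study's methods. Under the other settings, a shift of the members cannot be set beside that of all tested genes. Exceptions in HFD + EC359 against HFD were 2 higher and 11 lower with the GC and length trend removed (the same counts with a replicate block added), 14 lower with the length trend removed, and, in HFD + EC359 against LFD, 15 higher with DESeq2. The threshold of the study's methods gave 2 higher and 0 lower in HFD against LFD, 0 higher and 0 lower in HFD + EC359 against HFD, and 2 higher and 0 lower in HFD + EC359 against LFD. With a replicate block alone the counts were 12 higher and 33 lower, 4 higher and 7 lower, and 23 higher and 34 lower in the 3 comparisons. Leaving out each library in turn gave 9 to 13 higher and 29 to 33 lower in HFD against LFD, 3 to 4 higher and 5 to 8 lower in HFD + EC359 against HFD, and 18 to 23 higher and 32 to 36 lower in HFD + EC359 against LFD. Of 972 values of single genes with a library left out, 888 kept their direction and their side of the threshold, and of 324 with a trend removed, 244 did.

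Some directions turned. In HFD against LFD, Sdhc became 0.029 with the GC and length trend removed, 0.03 with a replicate block added to it, 0.075 with the length trend removed, 0.02 with library totals alone, and 0.025 without LFD replicate 3 (-0.067 to 0.025 over all libraries left out). Sdhd became 0.057 with the length trend removed, 0.004 with library totals alone, and 0.017 when thinned. Cycs became 0.022 with library totals alone, 0.063 without HFD replicate 2, and 0.001 without LFD replicate 1 (-0.128 to 0.063 over all libraries left out). Cox4i2 became -0.111 without HFD replicate 1 (-0.111 to 0.525 over all libraries left out). With the GC and length trend removed, without and with a replicate block, Hif1a, which was called higher at 0.194, became -0.126 and -0.127 and was called lower, and Myc 0.019 in both, while Uqcrc2 became -0.001 without the block. In HFD + EC359 against LFD, Cox6c became -0.044 in both, and Uqcrc2 became -0.053 and -0.048. The cause of these changes was not tested. The group with the fewest counts, LFD, also had the widest spread, and members of a few CPM, such as Ndufaf2 and Cox4i2, had standard errors of 0.415 and 0.381 on the log2 scale in HFD against LFD.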
